A study of Mus musculus with 6 samples.

Results

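The 34 genes described here encode the machinery that folds proteins in the endoplasmic reticulum (ER) and removes those that fail to fold. They were taken by symbol from a list of ER stress sensors, chaperones, disulfide enzymes, translocon subunits and ER-associated degradation factors. All 34 are among the 24421 symbols of the deposited count table, and all 34 passed the filter on low counts that left 11801 tested genes. RNA was sequenced from C2C12 cells, a mouse myoblast line, after lentiviral delivery of a hairpin RNA against Gaa (shGAA, 3 libraries) or of a scrambled hairpin (shScrambled, 3 libraries). Cells of both groups were expanded in 10% fetal bovine serum, selected with puromycin and put into 2% horse serum to form myotubes, in medium with 4.5 g/l glucose. Both groups carry the word Fed in their titles, which the labels leave unexplained. How many hairpin sequences were used, and whether libraries of a group are separate cultures, is not stated, so the p-values below reflect variation among these 6 samples and may measure technical spread alone. Gaa encodes lysosomal acid alpha-glucosidase, which degrades glycogen inside lysosomes, and the study asks about the role of glycogen breakdown by this route in muscle.

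Secreted and membrane proteins enter the ER through the Sec61 channel and are bound there by chaperones, of which BiP (Hspa5) is the central one, while disulfide isomerases form and correct their cysteine bonds. Proteins that stay misfolded are recognised by lectins and mannosidases and passed back to the cytosol for destruction, a route called ER-associated degradation. When unfolded proteins accumulate, the sensors ATF6, IRE1 and PERK start the unfolded protein response. Its ATF6 and XBP1 branches raise transcription of chaperone and degradation genes, and its PERK branch slows translation and raises ATF4 and its targets. Myotubes make large amounts of membrane and matrix protein and hold a specialised form of the ER, the sarcoplasmic reticulum.

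Gaa had 469, 445 and 552 counts in shGAA 1 to 3, against 1033, 1158 and 1119 counts in shScrambled 1 to 3. The hairpin libraries were thus below every scrambled one, with a log2 fold change of -1.25 ± 0.07 (SE, n = 3 per group; edgeR quasi-likelihood test, adjusted p = 1.09e-09). Library totals lay between 9224038 and 10430270 counts. Chi-square values per degree of freedom between libraries, near 1 for pure counting noise, were 1.95 to 2.54 within shGAA. Within shScrambled the value was 2.25 between libraries 2 and 3, and 5.87 and 5.31 between each of them and library 1, which stood apart. The culture was checked with defining markers. Of 12 myotube markers 11 were in the table, and they summed to 2099 to 2291 CPM (counts scaled to a common library size) in shGAA, against 2757 to 3024 CPM in shScrambled, with 6 of 10 tested lower. The 8 proliferation markers summed to 965 to 1060 CPM in shGAA, against 1221 to 1397 CPM in shScrambled, and all 8 were lower. Over all tested genes 19.7% were lower at an adjusted p under 0.05. Markers of both kinds were present in every library. In this bulk RNA, fewer cells of a type and less RNA per cell cannot be told apart. Adipocyte, leukocyte and endothelial markers summed to at most 5.23 CPM in any library. In these lists Plin1, Cidec, Lep, Cd3e, Itgam and Emcn had 0 counts throughout.

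Some promoters of the family carry the sequence through which ATF6 and XBP1 are known to act, and these matches are shown because they mark the members with the textbook form of that element. RefSeq promoter windows of GRCm38.p6, from 250 bases before to 50 bases after each start site, were available for 29 of the 34 genes; Atf6, Hyou1, Manf, Sec61a1 and Derl1 had none. The ER stress element (ERSE) was searched as CCAAT and CCACG with 9 free bases between them, on either strand. It was found for 8 of the 29 genes (27.6%) and for 37 of all 27025 genes with a window (0.137%). Its second form, ERSE-II, has ATTGG and CCACG with 1 free base between them, and was found for 2 of 29 (6.90%) and for 12 genes in all (0.0444%). In the lines below each element reads in its own 5′ to 3′ direction, and the capitals mark the fixed bases at its ends. The first 9 lines are ERSE, 2 of them from Hsp90b1, and the last 2 are ERSE-II.
Hspa5: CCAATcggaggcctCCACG
Hsp90b1 upstream copy: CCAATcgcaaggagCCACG
Hsp90b1 downstream copy: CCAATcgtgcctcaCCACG
Calr: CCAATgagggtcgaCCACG
Canx: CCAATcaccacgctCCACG
Dnajc3: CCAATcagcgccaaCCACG
Pdia6: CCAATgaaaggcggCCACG
Creld2: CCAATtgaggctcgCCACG
Syvn1: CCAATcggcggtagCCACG
Herpud1: ATTGGgCCACG
Dnajb11: ATTGGcCCACG

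The fixed ends are shared by construction of the search, while the bases between them differ from gene to gene. CCACG alone, which is part of both elements and overlaps each match of them, occurred for 24 of 29 genes (82.8%) against 35.5% of all genes. Derl2 and Txndc5 had alternative windows, and a match in any window of a gene was counted. The XBP1-type element TGACGTGG was found for Txndc5 alone among the members (3.45%, against 0.714% of all genes), and its last bases overlap a CCACG on the other strand. The ATF4-type element TGATGNAAT was found for 0 of 29 genes, against 1.08% of all genes. The absence of these letters in such a short window says nothing about the factors. In the RefSeq windows, Hspa5 has its ERSE 65 to 47 bases before the start site and Syvn1 44 to 26 bases before it, while in Dnajb11 the ERSE-II lies 7 to 17 bases after it. The 250 bases upstream of 3 of these genes are given below with the fixed bases of ERSE in capitals, which read as CGTGG and ATTGG where the element lies on the other strand. Hspa5 is the classical target, Hsp90b1 has 2 elements, and Creld2 is the ERSE gene with the largest fall in these data.
Hspa5, chr2:34771840-34772089, plus strand: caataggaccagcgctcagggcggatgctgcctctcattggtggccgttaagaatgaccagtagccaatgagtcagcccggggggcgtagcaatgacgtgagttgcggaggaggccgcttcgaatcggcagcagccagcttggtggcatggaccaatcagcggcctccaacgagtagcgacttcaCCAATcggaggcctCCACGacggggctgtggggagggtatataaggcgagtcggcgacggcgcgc
Hsp90b1, chr10:86705445-86705694, minus strand: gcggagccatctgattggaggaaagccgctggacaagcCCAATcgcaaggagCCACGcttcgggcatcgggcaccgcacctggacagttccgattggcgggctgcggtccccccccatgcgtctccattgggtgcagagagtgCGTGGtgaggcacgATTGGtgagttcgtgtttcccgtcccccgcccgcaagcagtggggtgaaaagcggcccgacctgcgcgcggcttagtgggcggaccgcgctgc
Creld2, chr15:88819396-88819645, plus strand: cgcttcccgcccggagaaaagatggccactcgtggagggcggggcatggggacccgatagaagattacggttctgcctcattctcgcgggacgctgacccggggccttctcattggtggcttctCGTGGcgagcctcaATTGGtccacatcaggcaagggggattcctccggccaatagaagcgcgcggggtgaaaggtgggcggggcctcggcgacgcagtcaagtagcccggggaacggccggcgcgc

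**Figure D1:**
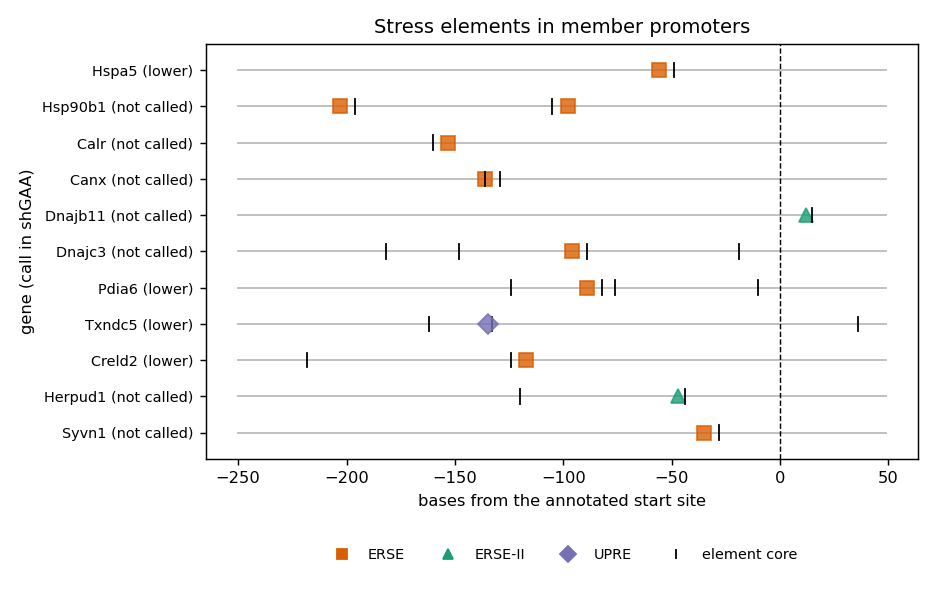
Position of stress elements in the promoter windows of the 11 members with at least 1 ERSE, ERSE-II or UPRE (TGACGTGG) match, in bases from the annotated start site. Squares mark ERSE, triangles ERSE-II, the diamond UPRE and short bars (element core) every CCACG site in the window shown. For Txndc5, which has alternative windows, the window with the UPRE match is shown. The call of each gene stands beside its name: 4 of the 11 genes (Hspa5, Pdia6, Txndc5 and Creld2) were lower in shGAA. Over all tested genes 19.7% were called lower. The calls of Hspa5 and Pdia6 ended when scaled by library size alone.

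The family changed little in cells with the Gaa hairpin. A gene was called at an adjusted p under 0.05 in edgeR's quasi-likelihood test over all tested genes. Of the 34 members, 8 fell, 2 rose and 24 did not pass. The members that fell were Derl1, Manf, Ssr1, Creld2, Txndc5, Pdia6, Hspa5 and Xbp1, and the 2 that rose were Dnajb9 and Os9. The 10 calls make 29.4% of the family, against 38.2% of all tested genes. Over all tested genes 19.7% were called lower and 18.5% higher, so that the share of members called lower, 8 of 34, was close to the background and the share called higher, 2 of 34, was below it. Scaled by library size alone, higher genes made up 60.0% of all calls in place of 48.4%, the median of all genes moved from 0.01 to 0.05 on the log2 scale, and 5 members fell and 2 rose. Of the 34 log2 fold changes 26 were below 0, and 21 when scaled by library size alone.

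The sizes were small. The median log2 fold change of the members was -0.07, with quartiles of -0.14 and -0.00, against a median of 0.01 and quartiles of -0.18 and 0.19 over all tested genes. The largest absolute value was 0.28, for Derl1, and 24.6% of the 7632 tested genes at or above the level of the lowest member (21.8 CPM) had a larger one. At that level 43.1% of genes were called. The 95% intervals of the 34 log2 fold changes, each for its gene alone, lay between -0.39 (Derl1) and 0.42 (Dnajb9). For the 24 genes that did not pass they lay between -0.28 (Ero1l) and 0.23 (Eif2ak3). Standard errors ran from 0.04 to 0.10. The median coefficient of variation within a group was 2.98% in shGAA and 3.23% in shScrambled.

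**Figure D2:**
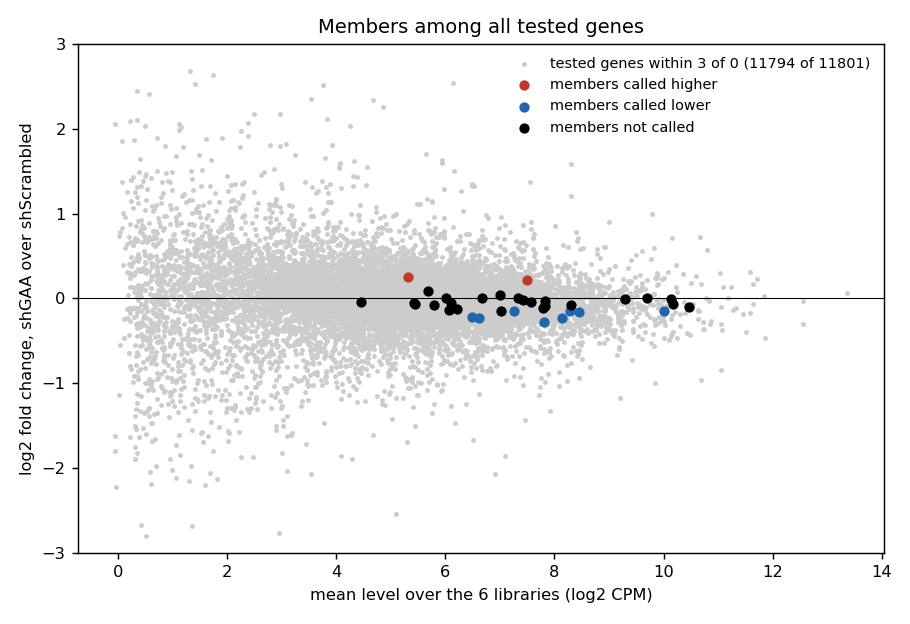
Log2 fold change (shGAA over shScrambled, y axis) against mean level (log2 CPM, x axis) of the tested genes within 3 log2 units of 0 (grey) and of the 34 members (coloured by call). The members lie between -0.28 and 0.25 at every level, inside the spread of the other genes.

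Summed over the 34 members, the libraries held 10047, 9961 and 10028 CPM in shGAA 1 to 3, against 10723, 10537 and 10331 CPM in shScrambled 1 to 3. The groups did not overlap on this TMM scale, and the ratio of their means was 0.951. Scaled by library size alone the groups overlapped, with 10153, 10121 and 10229 CPM in shGAA against 10523, 10312 and 10215 CPM in shScrambled, and the ratio was 0.982. Single genes were less clear: 15 of 34 had groups that did not overlap in CPM (13 with shGAA below, 2 above), against 49.6% of all tested genes. The library shScrambled 1 was the highest of the 6 for 16 members, and over members it lay a median of 0.02 (log2) above the mean of the other scrambled libraries. Its largest deviation was that of Ern1, at 0.31. The summed myotube markers and the summed proliferation markers given above were lower in shGAA under both scalings. Single myotube markers did not all fall: Ttn was at 0.14 ± 0.07 with TMM and did not pass. Scaled by library size alone, 1 myotube marker was called higher and 6 lower. The part of these markers in the members' values was not tested.

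**Figure D3:**
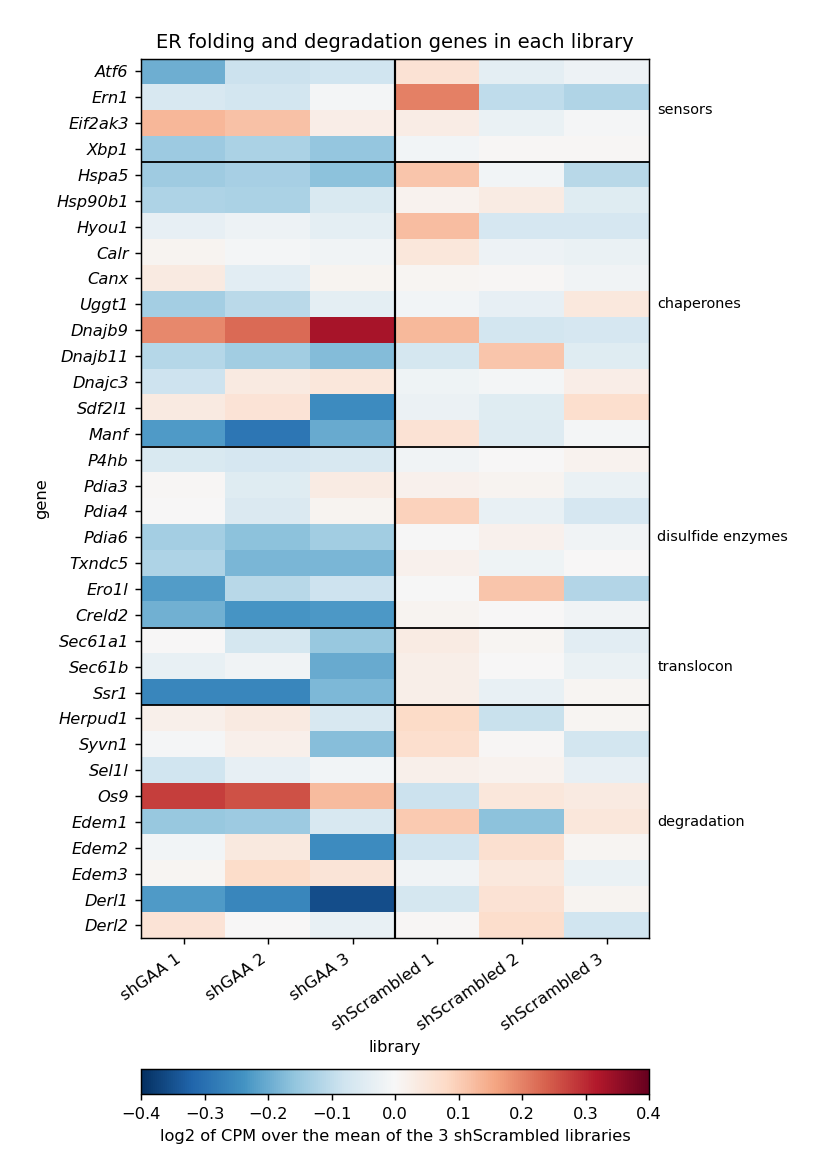
CPM of each member in each library as log2 of its ratio to the mean of the 3 shScrambled libraries (colour, from blue below to red above), with genes grouped by class and the shGAA libraries on the left. Derl1, Manf, Ssr1 and Creld2 are blue in all 3 shGAA libraries, Os9 and Dnajb9 are red in all 3, and the row of Ern1 is reddest in shScrambled 1.

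Among the sensors and the transcription factor they control, Xbp1 was the gene called. Its unspliced RNA is cut by IRE1 to encode the active XBP1 factor, a step that counts per gene do not show. Xbp1 had 145, 147 and 144 CPM in shGAA 1 to 3, against 159, 161 and 161 CPM in shScrambled 1 to 3. The groups did not overlap, and the log2 fold change was -0.14 ± 0.05 (SE, adjusted p = 0.0276). The call is near the threshold. It ended without shGAA 1, 2 or 3 or shScrambled 2 or 3 (adjusted p = 0.0820, 0.0641, 0.0771, 0.0700 and 0.0720), in DESeq2 (adjusted p = 0.0644) and when scaled by library size alone (adjusted p = 0.125). Atf6, the sensor that is cleaved to release its own transcription factor, had 201, 217 and 218 CPM in shGAA, against 240, 224 and 227 CPM in shScrambled. Its groups did not overlap either, but at -0.12 ± 0.05 it did not pass (adjusted p = 0.0746). Eif2ak3, which encodes PERK, had 54.2, 53.6 and 50.4 CPM in shGAA, against 50.5, 48.6 and 49.3 CPM in shScrambled, with a log2 fold change of 0.09 ± 0.07 and an interval of -0.05 to 0.23. Ern1, which encodes IRE1, averaged 42.2 ± 1.10 CPM in shGAA and 43.6 ± 5.65 CPM in shScrambled (SD, n = 3 each). Cleavage of ATF6 and phosphorylation of PERK and IRE1 are not measured by RNA counts.

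The major chaperones are among the abundant transcripts of these cells. Per kilobase of annotated exon, Calr stood at 390 in shGAA and 391 in shScrambled (CPM per kilobase, the RPKM scale), and Hsp90b1 at 337 in shGAA and 363 in shScrambled. On the same scale Hspa5 stood at 232 in shGAA and 257 in shScrambled, and Canx at 178 in shGAA and 177 in shScrambled. Hspa5, which encodes BiP, had 984, 990 and 970 CPM in shGAA, against 1174, 1078 and 1006 CPM in shScrambled. The shGAA libraries lay close together, while the scrambled ones were spread, with shScrambled 3 close to shGAA. The log2 fold change of -0.15 ± 0.05 passed (adjusted p = 0.0286), and mean CPM fell by 9.66%. Without shScrambled 1 it was -0.09 (adjusted p = 0.120). The call also ended without shGAA 1, 2 or 3 or shScrambled 2 (adjusted p = 0.0727, 0.0731, 0.0950 and 0.0503) and when scaled by library size alone (adjusted p = 0.112). Hsp90b1, the ER form of HSP90, had 1341, 1339 and 1402 CPM in shGAA, against 1477, 1495 and 1415 CPM in shScrambled. At -0.10 ± 0.04 it missed the threshold (adjusted p = 0.0559) and passed in limma-voom (adjusted p = 0.0484) and without shScrambled 3 (adjusted p = 0.0480). In GENCODE M21, 10.3% of the exonic bases of Hsp90b1 overlap 1810014B01Rik on the opposite strand.

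The lectin chaperones of the calnexin cycle, Calr and Canx, did not differ beyond the spread between libraries. Calr had 1135, 1120 and 1115 CPM in shGAA, against 1163, 1110 and 1106 CPM in shScrambled, with a log2 fold change of -0.00 and an interval of -0.09 to 0.08. Canx had 854, 809 and 839 CPM in shGAA, against 837, 835 and 825 CPM in shScrambled, with an interval of -0.08 to 0.09. Uggt1, the glucosyltransferase that sends incompletely folded glycoproteins back to these lectins, was at -0.09 ± 0.05 (adjusted p = 0.147). Its groups did not overlap, with 212, 216 and 227 CPM in shGAA against 231, 228 and 240 CPM in shScrambled, but it did not pass. Hyou1, which exchanges nucleotide on BiP, averaged 226 ± 1.54 CPM in shGAA and 230 ± 17.5 CPM in shScrambled.

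BiP works with J-domain cochaperones, and these did not change together. Dnajb9, which encodes ERdj4, had 41.3, 42.3 and 45.5 CPM in shGAA, against 39.6, 34.4 and 34.5 CPM in shScrambled. All shGAA libraries were above all scrambled ones, with shScrambled 1 nearest to them. The log2 rise was 0.25 ± 0.08 (adjusted p = 0.0184), a 1.19-fold change and the largest rise of the family. The call ended without shGAA 3, shScrambled 2 or shScrambled 3 (adjusted p = 0.0899, 0.0653 and 0.0781) and in DESeq2 (adjusted p = 0.0644), and Dnajb9 shares 5.5% of its 50-base stretches with Gm6568. Dnajb11, which encodes ERdj3, had 125, 123 and 120 CPM in shGAA, against 129, 146 and 131 CPM in shScrambled, a log2 fold change of -0.14 ± 0.06 (adjusted p = 0.0581). It passed without shScrambled 1 (adjusted p = 0.00895) and with no filter on low counts (adjusted p = 0.0485). Dnajc3, which encodes the cochaperone and PERK inhibitor P58IPK, averaged 160 ± 7.85 CPM in shGAA and 160 ± 2.54 CPM in shScrambled. Sdf2l1, a partner of ERdj3 and the least abundant member, averaged 21.4 ± 2.46 CPM in shGAA and 22.1 ± 0.939 CPM in shScrambled, and had the widest standard error of the family, 0.10.

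Manf, which encodes a secreted trophic factor that stays bound to BiP in the ER, was the chaperone-class gene with the clearest fall. It had 90.3, 86.5 and 91.8 CPM in shGAA, against 110, 102 and 105 CPM in shScrambled. The groups did not overlap, and the log2 fold change was -0.24 ± 0.05 (adjusted p = 0.00256). The fitted fold change equals a fall of 15.1%. It was called in all 12 alternative settings, with log2 fold changes between -0.26 and -0.19. Manf (Entrez 74840) lies on chromosome 9 at 106888753 to 106891938 of GRCm38.p6, the assembly also called mm10.

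All 7 disulfide-class genes had log2 fold changes at or below 0. Of these 3 passed, 42.9% of the class against 38.2% of all tested genes. All 3 were falls, beside 19.7% of all tested genes called lower. But scaled by library size alone Pdia3 (0.05) and Pdia4 (0.03) were above 0 and 2 genes passed. Creld2, which encodes an ER-resident protein with EGF-like repeats, had 84.4, 81.9 and 82.3 CPM in shGAA, against 97.2, 96.5 and 95.6 CPM in shScrambled. The groups stood far apart relative to their spread, and the log2 fold change was -0.22 ± 0.05 (adjusted p = 0.00346). Txndc5, the isomerase ERp46, had 337, 323 and 323 CPM in shGAA, against 371, 363 and 367 CPM in shScrambled, a log2 fold change of -0.17 ± 0.04 (adjusted p = 0.00629). Both genes were called in all 12 alternative settings. Pdia6, the isomerase P5, had 298, 292 and 297 CPM in shGAA, against 327, 331 and 324 CPM in shScrambled. It changed by -0.15 ± 0.04 (adjusted p = 0.0124), a call that ended without shGAA 2 (adjusted p = 0.0588) and when scaled by library size alone (adjusted p = 0.0689). The isomerases most abundant per kilobase did not pass. P4hb, the archetypal protein disulfide isomerase and also a subunit of collagen prolyl hydroxylase, had 1138, 1132 and 1134 CPM in shGAA, against 1174, 1189 and 1197 CPM in shScrambled. Its groups did not overlap, but the percent change was -4.41 at a log2 fold change of -0.07 ± 0.04 (adjusted p = 0.200). Pdia3, which works with calnexin and calreticulin, was at -0.00 ± 0.04 with an interval of -0.09 to 0.09, and Pdia4 was at -0.02 ± 0.05. Ero1l, the oxidase that recharges the isomerases, had 59.9, 64.8 and 66.0 CPM in shGAA, against 69.9, 75.5 and 64.5 CPM in shScrambled, with overlapping groups and a log2 fold change of -0.14 ± 0.07 (adjusted p = 0.121).

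In the translocon class the channel subunits and their partner differed in call. Sec61a1, the pore-forming subunit, had 326, 310 and 293 CPM in shGAA, against 333, 327 and 316 CPM in shScrambled (log2 fold change -0.07 ± 0.05, adjusted p = 0.255). Sec61b was at -0.08 ± 0.07 and shares 17.4% of its 50-base stretches with Gm10320. Ssr1, the alpha subunit of the translocon-associated protein complex, had 253, 253 and 268 CPM in shGAA, against 308, 297 and 305 CPM in shScrambled. No shGAA library reached a scrambled one, and the log2 fold change was -0.23 ± 0.05 (adjusted p = 0.000765). The fitted fold change equals a fall of 14.8%. Ssr1 (Entrez 107513) lies on chromosome 13 at 37971401 to 37994208. It was called in all 12 alternative settings, but whether it differs from the Sec61 genes was not tested.

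The 9 ER-associated degradation genes had a median log2 fold change of -0.04, or 0.01 when scaled by library size alone, and held both the largest fall of the family and a rise. Derl1, a derlin of the channel through which proteins leave the ER, had 211, 206 and 193 CPM in shGAA, against 235, 257 and 249 CPM in shScrambled. The groups did not overlap, and Derl1 fell by 17.6% (log2 fold change -0.28 ± 0.05, adjusted p = 0.000407). Derl1 (Entrez 67819) lies on chromosome 15 at 57869502 to 57892418. The predicted gene Gm35638 holds 5.6% of its 50-base stretches. Its paralog Derl2 had 66.2, 63.8 and 62.5 CPM in shGAA, against 64.0, 67.0 and 60.3 CPM in shScrambled, with a log2 fold change of 0.01 and an interval of -0.12 to 0.14. Os9, the lectin that delivers trimmed glycoproteins to the ubiquitin ligase complex, had 202, 199 and 182 CPM in shGAA, against 157, 172 and 171 CPM in shScrambled. The groups did not overlap, and Os9 had a log2 rise of 0.22 ± 0.06 (adjusted p = 0.00491), a 1.17-fold change. Os9 (Entrez 216440) lies on chromosome 10 at 127094259 to 127121160. Derl1 and Os9 were both called in all 12 alternative settings.

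The ligase complex itself showed no call. Syvn1, the ubiquitin ligase HRD1, was at -0.05 ± 0.07, its adaptor Sel1l at -0.04 ± 0.05, and Herpud1, a stress-induced scaffold of the complex, at 0.00 ± 0.06. Herpud1 had 103, 104 and 97.0 CPM in shGAA, against 107, 95.4 and 102 CPM in shScrambled, so its groups overlapped. The mannosidase-family genes Edem1, Edem2 and Edem3, whose products mark glycoproteins for degradation, were at -0.12 ± 0.07, -0.07 ± 0.08 and 0.05 ± 0.05. Edem1 passed without shScrambled 2 (-0.20, adjusted p = 0.0274), the library in which it was lowest of the scrambled group.

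**Figure D4:**
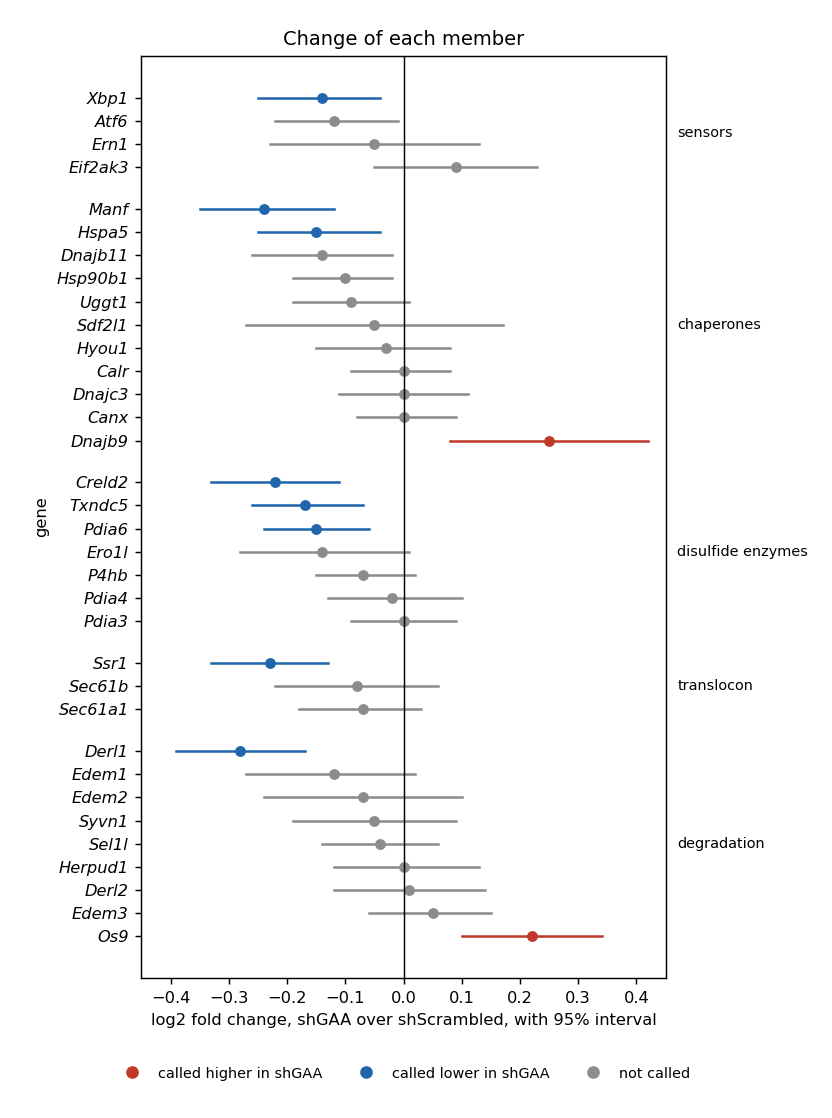
Log2 fold change (shGAA over shScrambled) of each member with its 95% interval, grouped by class and sorted within it. Blue genes were called lower, red genes higher and grey genes did not pass; no interval reaches below -0.39 or above 0.42.

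Of the 10 calls, 6 held in all 12 alternative settings: the falls of Manf, Txndc5, Creld2, Ssr1 and Derl1 and the rise of Os9. Another 21 members were called in no setting, among them all 3 sensors, the calnexin cycle genes Calr, Canx and Uggt1, and Syvn1, Sel1l and Herpud1. Calls fell on genes with and without a promoter match. Of the 10 members with ERSE or ERSE-II, 3 fell, 0 rose and 7 did not pass, with a median log2 fold change of -0.08. That is 30.0% called, against 38.2% of all tested genes called and 19.7% lower. Of the 19 members whose windows held neither element, 3 fell, 2 rose and 14 did not pass, 26.3% called, with a median of -0.05. Both shares called were below 38.2%, but the 30.0% of genes with an element that were called lower was above 19.7%. With so few genes these shares describe the listed members alone.

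Other genes of ER protein handling, taken from a list of 119, also moved both ways. The test covered 115 of them and called 20 higher and 24 lower, leaving 71 that did not pass, 38.3% called in all, near the 38.2% of all tested genes, and the median was -0.03. Scaled by library size alone the balance turned over, with 23 higher and 17 lower and a median of 0.02. The PERK arm has outputs that are also driven by other kinases of the integrated stress response. Of 7 genes listed for this arm 6 rose, against 18.5% of all tested genes. The other, the phosphatase regulator Ppp1r15b, fell (-0.17 ± 0.05, adjusted p = 0.0231). It is counted as a regulator of the arm, not as a gene the arm induces. Scaled by library size alone 6 of the 7 were higher and 0 lower. Ddit3, which encodes the transcription factor CHOP, had 579, 592 and 607 counts in shGAA, against 337, 384 and 353 in shScrambled. The groups were well separated, and it rose by 0.66 ± 0.08 (log2, adjusted p = 3.68e-06). Asns, the ATF4 target that makes asparagine, rose by 0.57 ± 0.08 (adjusted p = 3.88e-05) and Chac1, which degrades glutathione, by 0.66 ± 0.14 (adjusted p = 0.00142). Atf4 itself had overlapping groups, at 470 ± 16.1 CPM in shGAA and 417 ± 39.1 CPM in shScrambled (0.17 ± 0.06, adjusted p = 0.0286). Its call ended without shGAA 1 or 2 or shScrambled 2 or 3 (adjusted p = 0.118, 0.0707, 0.0971 and 0.139). Ppp1r15a (GADD34) was at 0.21 ± 0.08 (adjusted p = 0.0458). Its call ended without shGAA 1, 2 or 3 or shScrambled 1 or 3 (adjusted p = 0.0762, 0.140, 0.0990, 0.0518 and 0.209), in DESeq2 (adjusted p = 0.130) and with a non-robust fit (adjusted p = 0.0518). The median of the class was 0.56, against -0.07 for the members; the difference between the classes was not tested.

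Among the ATF6-type factors and their proteases, 1 of 6 was called, lower with TMM. That is 16.7%, against 38.2% of all tested genes. Mbtps2, the second protease of ATF6 cleavage, was at -0.21 ± 0.08 (adjusted p = 0.0455), shares 28.9% of its stretches with Yy2, and lost its call without shGAA 1 or 2 or shScrambled 2 or 3 (adjusted p = 0.214, 0.116, 0.108 and 0.0709), in DESeq2 (adjusted p = 0.133) and when scaled by library size alone (adjusted p = 0.116). Of 21 further chaperones and prolyl isomerases 3 rose and 3 fell, 28.6% called beside the same 38.2%. Cnpy2 rose by 0.30 ± 0.07 and the cyclophilin gene Ppic by 0.25 ± 0.06, while the torsin gene Tor1a fell by 0.30 ± 0.08. Of 16 further disulfide enzymes tested, 1 rose and 4 fell, 31.2% called. With so few genes per class, these shares describe the genes listed. Erp29, 24.4% of whose exonic bases overlap Naa25 on the opposite strand, rose by 0.36 ± 0.05 (adjusted p = 6.04e-05), and the ER peroxidase gene Gpx8 and Creld1, the paralog of Creld2, fell by 0.29 ± 0.05 and 0.52 ± 0.11.

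The classes for the steps on either side of folding are read against 19.7% of all tested genes lower and 18.5% higher. Each class holds few genes, so its share describes the genes listed. In translocation and signal peptide cleavage 5 of 16 fell and 1 rose, 37.5% called and so near the background of 38.2%, and scaled by library size alone 3 were lower and 2 higher. The calls were led by the signal peptidase subunit gene Spcs3 (-0.29 ± 0.06, adjusted p = 0.000775), the channel subunit gene Sec61g (-0.27 ± 0.06, with 14.8% of its stretches shared with Gm10177) and Ssr4 (-0.22 ± 0.06, adjusted p = 0.00883), a partner of Ssr1. The call of Ssr4 ended without shScrambled 3 (adjusted p = 0.0592). In N-glycosylation and glycan trimming 5 of 17 fell and 3 rose, 47.1% called beside that background. The 3 rises were those of Prkcsh (0.17 ± 0.05), Uggt2 (0.22 ± 0.06) and Alg5 (0.19 ± 0.06). Scaled by library size alone 4 were lower and 3 higher. Rpn2, Ddost and Dad1, subunits of the oligosaccharyltransferase, changed by -0.25 ± 0.04 (adjusted p = 0.000222), -0.20 ± 0.05 (adjusted p = 0.00263) and -0.24 ± 0.06 (adjusted p = 0.00278). In the rest of ER-associated degradation 5 of 24 fell and 2 rose, 29.2% called beside that background. Ube2g2, a ubiquitin-conjugating enzyme of this route, fell by 0.52 ± 0.05 (adjusted p = 5.99e-07), at 136 ± 5.99 CPM in shGAA and 196 ± 2.74 CPM in shScrambled. Erlin1 and Erlin2, ER membrane scaffold genes, fell by 0.33 ± 0.06 and 0.36 ± 0.06.

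Of 8 ER-phagy receptors and reticulon-type genes 4 rose and 0 fell in this test, beside 18.5% higher and 19.7% lower over all tested genes. With so few genes this is a description of the 8, and their median was 0.11. ER-phagy is the autophagic removal of ER. Atl3 had 2656, 2591 and 2831 counts in shGAA, against 1936, 1909 and 1992 in shScrambled, and rose by 0.40 ± 0.05 (adjusted p = 4.76e-06). Fam134a, of the FAM134 receptor family, rose by 0.36 ± 0.06 (adjusted p = 0.000309). Ccpg1, a receptor, rose by 0.44 ± 0.07 (adjusted p = 0.000203), but 40.9% of its stretches are shared with the overlapping Gm44503 and 28.9% of its exonic bases overlap Pigb on the opposite strand. Of 9 matrix and fibroblast marker genes whose products pass through the ER, 3 rose and 3 fell (4 and 2 when scaled by library size alone). That is 66.7% called with TMM, against 38.2% of all tested genes. Their sum was 18875 to 19066 CPM in shGAA, against 17926 to 18330 CPM in shScrambled. Fn1 held the largest part of it, at a mean of 10771 CPM in shGAA and 10325 CPM in shScrambled, and did not pass. The log2 rises were those of Col3a1 (0.31), Lum (0.33) and Dcn (0.24). The falls were those of Col1a1 (-1.10), Col1a2 (-0.47) and Sparc (-0.13).

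**Figure D5:**
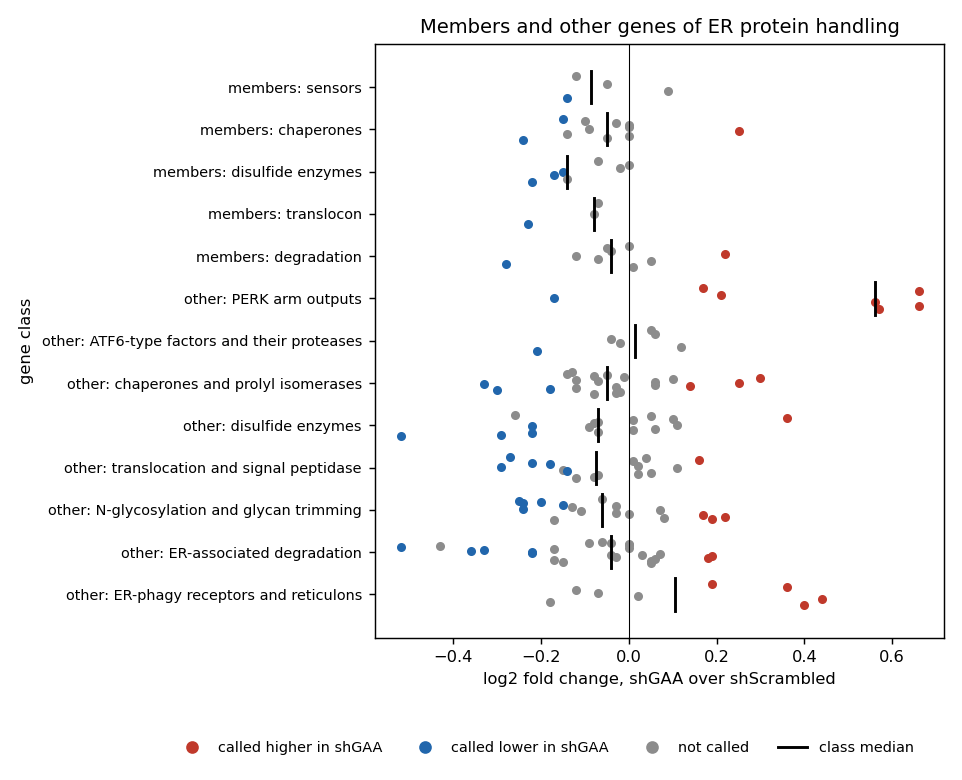
Log2 fold change (shGAA over shScrambled) of every tested member and of the other tested genes of ER protein handling, 1 point per gene, by class, with the class median as a black bar. Members lie between -0.28 and 0.25. The class labelled PERK arm outputs, which includes the regulator Ppp1r15b, has a median of 0.56 and 6 of 7 called higher.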

How the data were processed

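Gene expression was measured in 6 RNA-seq libraries of C2C12 cells, made from 1 ug of total RNA each. The authors deposited raw read counts as a single table, with gene symbols in rows and libraries in columns; per the submitters' processing notes the build was mm10 and the tools included HISAT2 2.1.0, Subread, FastQC and edgeR. Annotation, strand use and the handling of reads that fit several genes were not given in the sources used, so reads of overlapping or near-identical genes may be miscounted. Columns were matched to libraries by title.

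All tests started from the deposited counts. filterByExpr kept 11801 genes, holding 99.91% of the counts, and TMM factors were 0.9795 to 1.021. The test was edgeR 4.0.16 (R 4.3.3) with a robust quasi-likelihood fit, group as the only term, and Benjamini-Hochberg adjustment over all tested genes. Each log2 fold change sets shGAA over shScrambled; the SE is the coefficient divided by the root of its F statistic, and 95% intervals use the degrees of freedom of the test. CPM uses the TMM-scaled library size, and RPKM divides it by the union of GENCODE M21 exons. Shared stretches are 50-base words also found in GENCODE M21 transcripts of another gene. Gene positions and promoters are RefSeq's for GRCm38.p6. The code was tested on simulated counts. Alternatives were scaling by library size alone, no filter, a non-robust fit, the replicate block, limma-voom (limma 3.58.1), DESeq2 1.42.0 and leaving out each library.

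The members and gene lists were chosen with earlier results of these data known. Named were all members, Gaa and 3 PERK-arm genes (Atf4, Ddit3, Ppp1r15a). In each class of the wider list up to 3 called genes with the smallest adjusted p were also named. Ppp1r15b, Prkcsh, Uggt2, Alg5, the marker Ttn and the matrix markers given by name were named after their values were seen. Protein sequences were not used here.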

Additional observations from a re-analysis of the deposited data

How the results depend on the processing

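Across the 12 alternatives, the members' log2 fold changes kept direction and side of the threshold in 353 of 408 values; 20 lost a call, 5 gained one and 30 changed sign, all of genes near 0 that did not pass. Gaa stayed lower in each. The 2 members called higher were 1 in DESeq2 and 1 to 2 when a library was left out, the 1 without shGAA 3, shScrambled 2 or shScrambled 3. The 8 called lower were 5 when scaled by library size alone and 5 to 8 when a library was left out, the 5 without shGAA 2. The 20 genes of the wider list called higher were 11 to 18 when a library was left out; 11 without shGAA 1, 13 without shGAA 2 and 12 without shScrambled 3. Scaled by library size alone the wider list had 23 higher and 17 lower in place of 20 and 24, and the ratio of the members' summed CPM was 0.982 in place of 0.951, a comparison added after seeing the data. Under the same scaling, values above 0 were found for Hyou1 (0.02), Calr (0.04), Pdia3 (0.05), Pdia4 (0.03) and Sel1l (0.01), and Dnajc3 was at -0.0001 in limma-voom. Leaving out a library gave -0.11 to 0.06 for Ern1, -0.06 to 0.03 for Hyou1, -0.02 to 0.02 for Calr, -0.01 to 0.03 for Canx, -0.02 to 0.04 for Dnajc3, -0.10 to 0.05 for Sdf2l1, -0.02 to 0.02 for Pdia3, -0.05 to 0.03 for Pdia4, -0.04 to 0.04 for Herpud1, -0.09 to 0.01 for Syvn1, -0.13 to 0.02 for Edem2 and -0.03 to 0.04 for Derl2. The cause was not tested.

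Libraries with the same number did not deviate together, with correlations of -0.0399 to 0.0534. Of the 6 libraries, 2 correlated best with their own number. Whether libraries were prepared in pairs is not stated, and these correlations cannot decide it. With the replicate block 2 members were higher and 7 lower, Xbp1 lost its call (adjusted p = 0.0567), as did Mbtps2 (adjusted p = 0.0588), and Dnajc3 was at -0.0003. The standard errors of 0.04 to 0.10 are not limits of detection. Hsp90b1 at -0.10 ± 0.04 and Ero1l at -0.14 ± 0.07 differed by more than their standard errors and did not pass. Differences of such sizes may therefore have been missed among the 24 members that did not pass.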
